A study of Mus musculus with 8 samples.

Results

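The clustered protocadherins are a family of cell-surface adhesion proteins whose genes stand side by side on mouse chromosome 18. The 58 genes were taken as all RefSeq genes of that chromosome whose symbols begin with Pcdha, Pcdhb or Pcdhg followed by a, b, c or a digit, out of 26180 genes with a curated transcript. They fall into 3 clusters, with 14 alpha, 22 beta and 22 gamma genes. Of the 58, 57 are among the 21000 protein-coding genes of the annotation, and 1, Pcdhgb8, is a transcribed pseudogene. All lie on the plus strand between 36930285 and 37841873 of chromosome 18 (mm10), a span of 911.589 kb. Each has 1 curated transcript and therefore 1 annotated transcription start site.

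Open chromatin was profiled by ATAC-seq, in which the Tn5 transposase cuts accessible DNA, in lenses of CD1 mice that were microdissected into epithelium and fibers, in the embryo (E14.5) and just after birth (P0.5). Each of the 4 groups had 2 libraries, 8 in all, each made from several pooled lenses, and the mice carried no engineered allele or treatment. The peak names mark each deposited list as pooled over the 2 libraries of a group, so each group is 1 list of peaks, with 100003 peaks in the E14.5 epithelium list, 123743 in the E14.5 fiber list, 58592 in the P0.5 epithelium list and 62995 in the P0.5 fiber list. No value per library stands behind a peak, no read depth is in the lists, and every difference between lists is therefore given as a description without a test.

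In each alpha and gamma gene a large variable first exon with its own promoter is spliced to a few constant exons at the end of the cluster, whereas each beta gene is a single exon. In neurons, single cells are known to use a few of these promoters each, chosen in a stochastic manner with the help of the insulator protein CTCF and the cohesin ring, so that cell surfaces differ and recognise their own kind by homophilic binding. The C-type genes Pcdhac1, Pcdhac2, Pcdhgc3, Pcdhgc4 and Pcdhgc5, which stand last in the alpha and gamma clusters, are known to be regulated differently from the others and to be used more uniformly among cells. In the annotation used here, the alpha and gamma genes all had 4 exons and the beta genes 1. Their first exons had a median length of 2465 bp in the alpha, 3417.5 bp in the beta and 2578 bp in the gamma cluster. Start sites followed each other at a median spacing of 7.44 kb, 7.842 kb and 5.33 kb.

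A gene was counted as having a promoter peak when a peak overlapped the 2 kb on either side of its start site. In the lens, few clustered protocadherin genes had one, and at E14.5 those that did were C-type genes and gamma genes, with Pcdhb4 as the single exception. Of the 58 genes, 10 had a promoter peak in the E14.5 epithelium list (17.2%), where 70.3% of all protein-coding genes had one. The E14.5 fiber list had such a peak at 16 genes (27.6%), beside 71.2% of all protein-coding genes. The P0.5 epithelium list had 3 (5.17%), beside 67% of all protein-coding genes, and in the P0.5 fiber list 13 (22.4%), beside 64.6%. Thus in each list the share among the clustered genes was below that of protein-coding genes in general. With the same number of strongest peaks taken from each list, that of the shortest list, the 4 counts became 6, 11, 3 and 11.

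**Figure D1:**
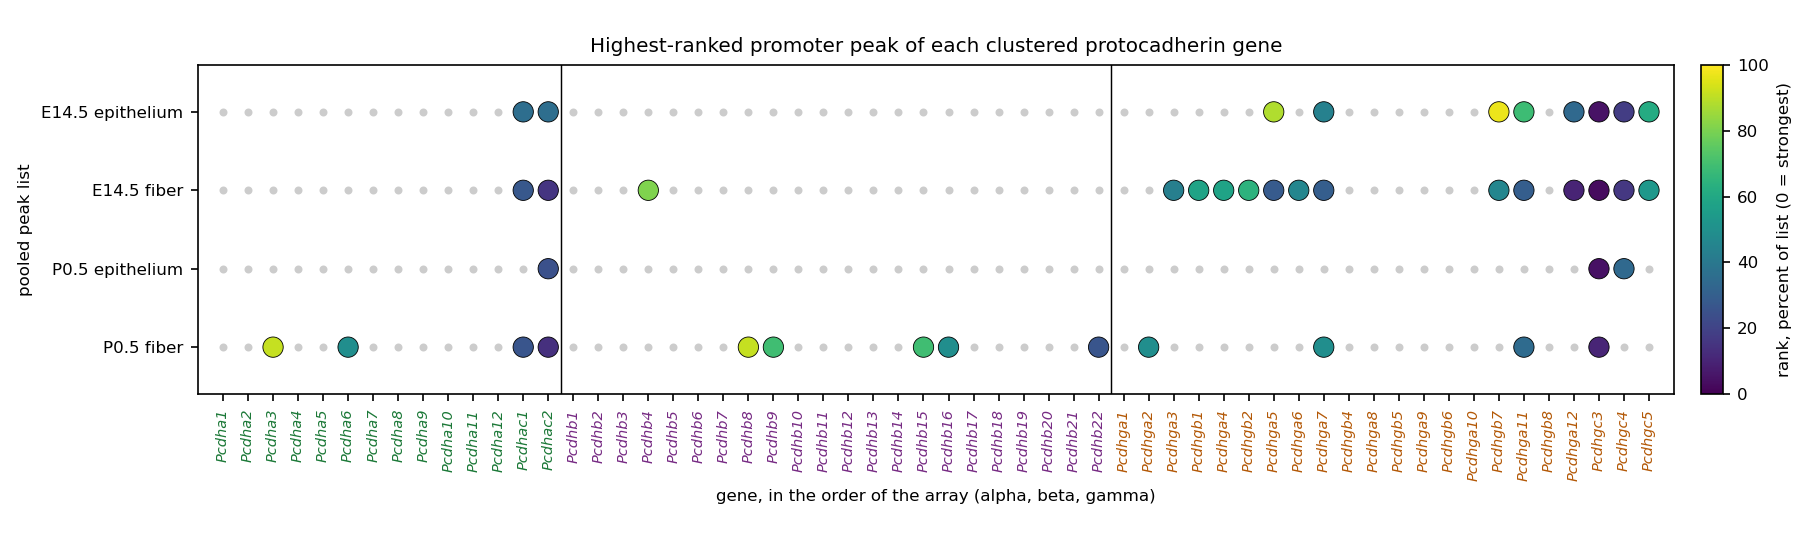
Each column is 1 of the 58 genes in the order of the array, with symbols in green for alpha, purple for beta and orange for gamma, and each row is 1 pooled peak list. Large points mark genes with a promoter peak, coloured by the rank of their highest-ranked peak in percent of the list, and small grey points mark genes without one. The E14.5 fiber row holds 16 large points and the P0.5 epithelium row 3, and only the columns of Pcdhac2 and Pcdhgc3 are filled in all 4 rows.

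Presence across the lists was uneven. A promoter peak stood in all 4 lists at 2 of the 58 genes, Pcdhac2 and Pcdhgc3, whereas 60.6% of all protein-coding genes had one in all 4. No list held a promoter peak for 34 genes (58.6%), beside 25.5% of all protein-coding genes. These 34 were 10 alpha genes, 16 beta genes and 8 gamma genes. Another 4 genes, Pcdhga5, Pcdhgb7, Pcdhga12 and Pcdhgc5, had a promoter peak in both E14.5 tissues and in neither P0.5 tissue (6.90%, beside 1.6% of all protein-coding genes). With equal numbers of peaks this count was 1, Pcdhga12, beside 0.762% of all protein-coding genes. At 1 kb Pcdhga11 took the place of Pcdhgc5, and at 500 bp the count was 5 (8.62%, beside 1.69%). A q value under 0.001 left Pcdhga7, Pcdhga12 and Pcdhgc5 (5.17%, beside 2.26%). The 6 genes Pcdhb4, Pcdhga3, Pcdhgb1, Pcdhga4, Pcdhgb2 and Pcdhga6 had a promoter peak in the E14.5 fiber list alone (10.3%, beside 1.53%). For equal numbers of peaks this set was Pcdhga3, Pcdhga5, Pcdhga6 and Pcdhgb7 (6.90%, beside 0.614%), so that only Pcdhga3 and Pcdhga6 of the 6 remained. The 8 genes Pcdha3, Pcdha6, Pcdhb8, Pcdhb9, Pcdhb15, Pcdhb16, Pcdhb22 and Pcdhga2 had one in the P0.5 fiber list alone (13.8%, beside 1.2%). These 8 rested on the width of the window, since their summits lay 1514 to 2111 bp downstream, and 0 were left at 1 kb or 500 bp on either side and 1, Pcdhb22, at a q value under 0.001. All 10 genes with a promoter peak in the E14.5 epithelium list were among the 16 of the E14.5 fiber list, and all 3 of the P0.5 epithelium list were among both E14.5 sets, where the shares over all protein-coding genes were 97.7%, 98.5% and 98.6%. The E14.5 and P0.5 fiber sets shared 5 genes, which is 31.25% of the first and 38.5% of the second. At Pcdhga7 and Pcdhga11 the shared call came from separate peaks. Their summits lay 87 and 79 bp before the start site at E14.5 and 770 and 2106 bp after it at P0.5. Over all protein-coding genes these 2 fiber sets shared 88.4% of the first and 97.3% of the second. The second of the members' shares rested on the width of the window, and became 100% at 1 kb (4 of 4 genes) and at 500 bp (3 of 3), while the first became 26.7% and 20%.

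Where promoter peaks were present, they were by their median weaker than promoter peaks in general. Strength was taken as the rank of a peak by fold enrichment within its own list, in percent of the list, so that a low value marks a strong peak. The median rank of the members' highest-ranked promoter peaks was 39.7% in the E14.5 epithelium list, 36.2% in the E14.5 fiber list, 24.9% in the P0.5 epithelium list and 48.9% in the P0.5 fiber list. Over all protein-coding genes with a promoter peak the corresponding medians were 7.68%, 6.10%, 12.8% and 10.3%. The members' median of the P0.5 fiber list became 20.2% at 1 kb and 14.0% at 500 bp, and that of the E14.5 fiber list 59.9% with equal numbers of peaks. In pooled tissue, fewer cells with an open promoter and a promoter less open in each cell cannot be told apart.

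**Figure D2:**
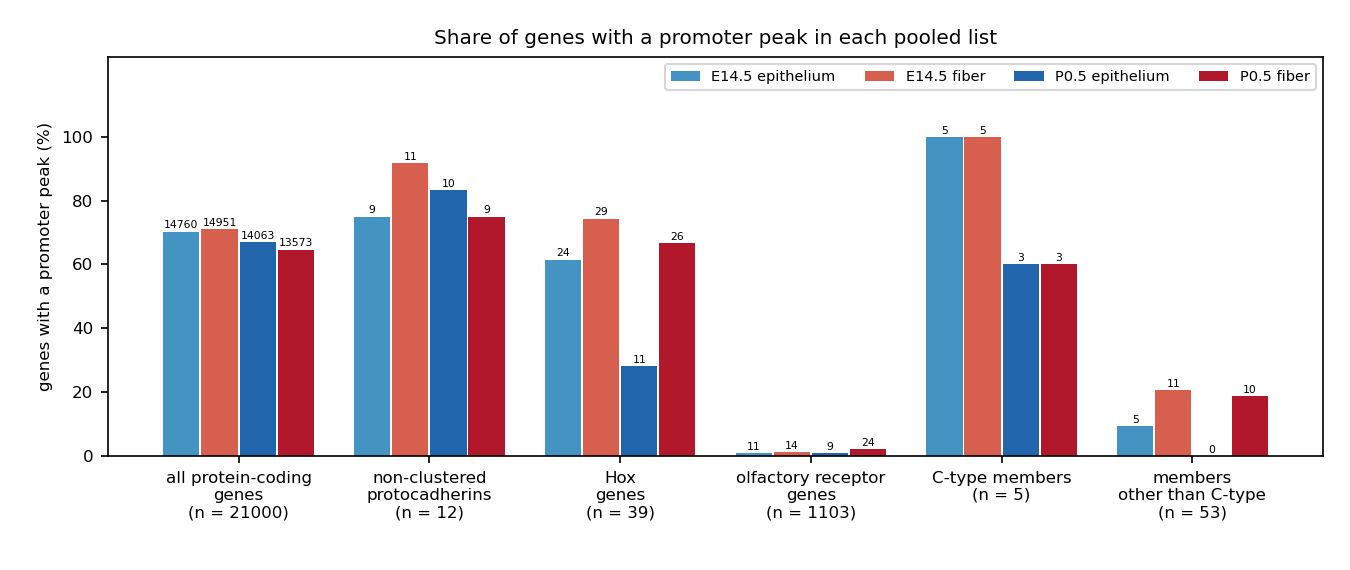
Bars give the percent of the genes of each set that had a promoter peak, 1 bar for each pooled list, with the number of genes with a peak above each bar and the number in the set under its name. The C-type genes reach 5 of 5 in both E14.5 lists, Pcdhgc5 by peaks away from its start site. The other 53 clustered genes lie between 0 and 11 in the 4 lists.

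A promoter peak was called at a larger share of the C-type genes than of the others. All 5 had a promoter peak in both E14.5 tissues and 3 of them had one in each P0.5 tissue. The first is a share of 100%, beside 70.3% and 71.2% of all protein-coding genes, and the second one of 60%, near the 67% and 64.6% of all protein-coding genes. In both E14.5 lists 4 of the 5 had the summit within 500 bp of the start site, and Pcdhgc5 was counted by peaks further away. Of the other 53 genes, 5 had a promoter peak in the E14.5 epithelium list, 11 in the E14.5 fiber list, 0 in the P0.5 epithelium list and 10 in the P0.5 fiber list. By cluster, the alpha genes with a promoter peak numbered 2, 2, 1 and 4 in the 4 lists in this order, the beta genes 0, 1, 0 and 5, and the gamma genes 8, 13, 2 and 4.

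Pcdhgc3, the first of the 3 C-type genes of the gamma cluster, had the highest-ranked promoter peak of all 58 genes in every list. In E14.5 epithelium its peak at chr18:37805993-37807626 ranked within the top 4.88% of the list, and in the E14.5 fiber list the peak at chr18:37805991-37808589 ranked within the top 3.11%. For P0.5 epithelium the peak at chr18:37806066-37807327 stood at 4.65%, and in the P0.5 fiber list the peak at chr18:37806170-37806953 stood at 10.3%. Its width was 1634 bp, 2599 bp, 1262 bp and 784 bp in these 4 lists. The summits lay 89, 57, 56 and 100 bp before the start site, within 44 bp of each other. Both the E14.5 epithelium and the P0.5 fiber list had further, weaker peaks inside the first exon.

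Pcdhac2, the last gene of the alpha cluster, was the other gene with a promoter peak in all 4 lists. Its peak ranked at 35.9% in the E14.5 epithelium list, 15.3% in the E14.5 fiber list, 24.9% in the P0.5 epithelium list and 14.0% in the P0.5 fiber list. The E14.5 fiber peak, chr18:37143459-37144958, was 1500 bp wide and contained the other 3. Thus by rank the peak stood higher in the fiber list than in the epithelium list of the same age.

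Pcdhac1, the neighbouring C-type gene, had a promoter peak in 3 lists. It ranked at 35.9% in the E14.5 epithelium list, 27.2% in the E14.5 fiber list and 26.4% in the P0.5 fiber list, with summits 157, 208 and 150 bp before the start site. No peak stood there in the P0.5 epithelium list. Its peaks were narrow, between 124 and 332 bp.

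Pcdhgc4 and Pcdhgc5 close the gamma cluster. At Pcdhgc4 the highest-ranked promoter peak stood at 17.8% in the E14.5 epithelium list, 16.2% in the E14.5 fiber list and 33.9% in the P0.5 epithelium list, with summits 275, 293 and 294 bp after the start site, and there was none in the P0.5 fiber list. Pcdhgc5, the last gene of the array, was counted in both E14.5 lists at 61.2% and 53.3%. These peaks did not stand at its start site. The E14.5 epithelium peak touched the edge of the window with a summit 2072 bp upstream, inside the first exon of Pcdhgc4, and the E14.5 fiber peak had its summit 1905 bp downstream, inside the first exon of Pcdhgc5 itself.

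**Figure D3:**
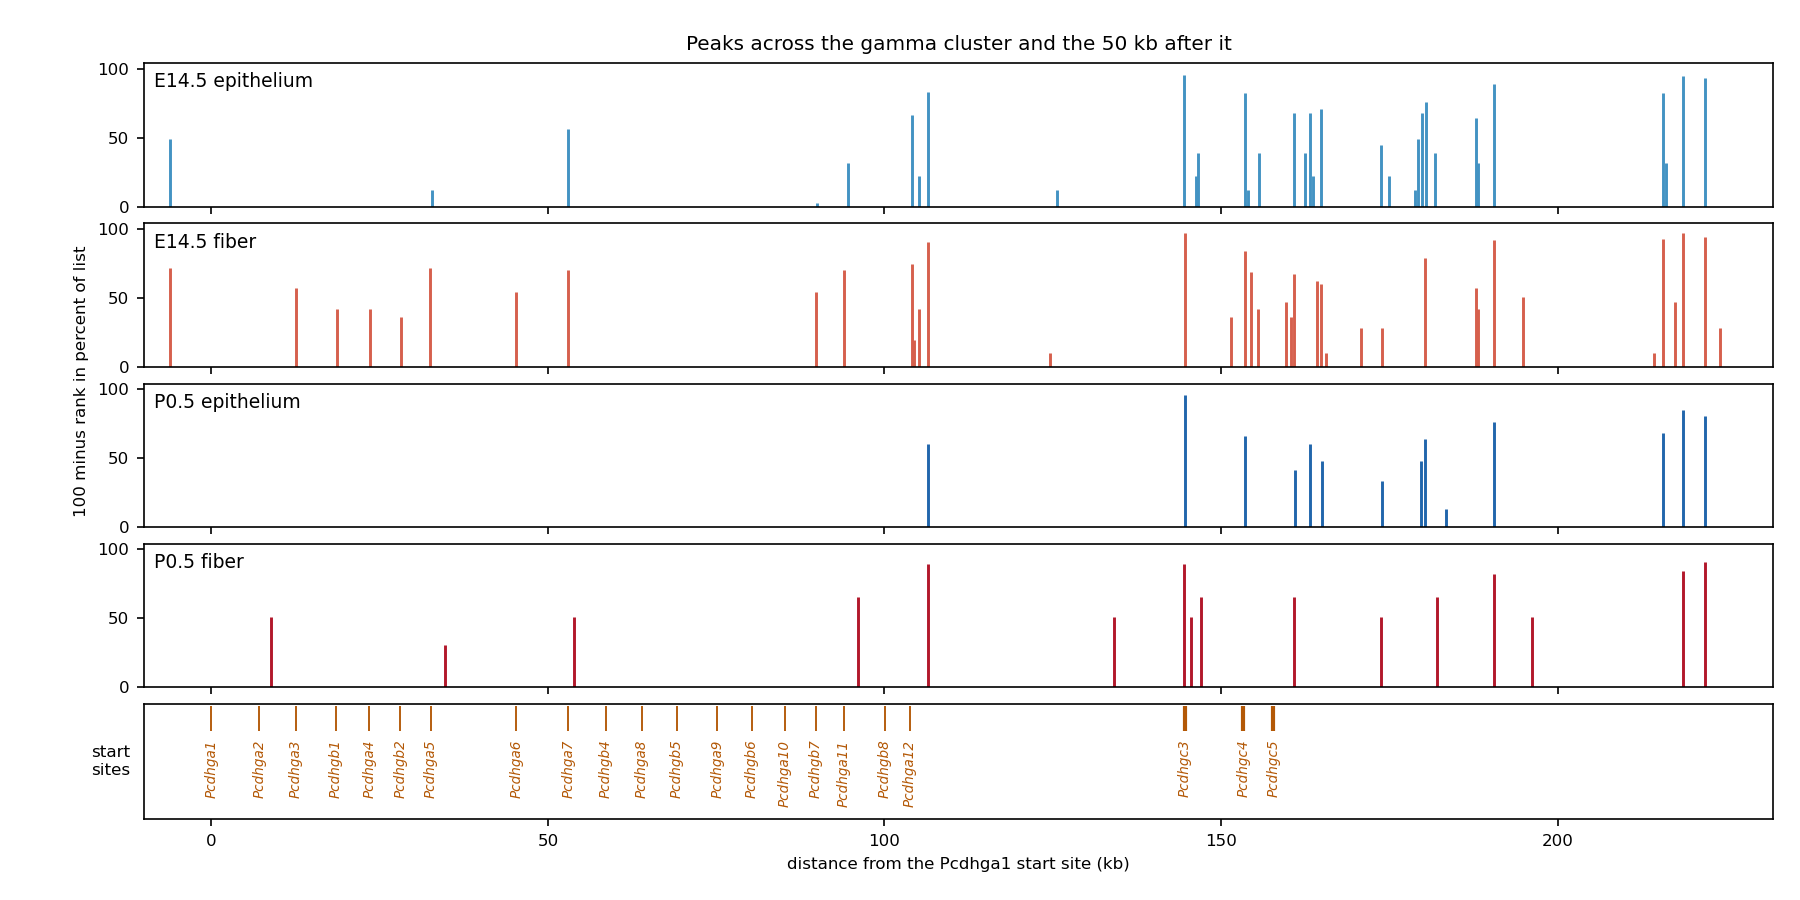
Vertical lines mark the summits of all peaks in each pooled list along the gamma cluster and the 50 kb after it, by distance in kb from the Pcdhga1 start site, with a height of 100 minus the rank in percent of the list (higher lines are stronger peaks). Ticks in the lowest panel mark the start sites, with thick ticks for the C-type genes. In the E14.5 fiber panel a line stands at each of the 7 start sites from Pcdhga3 to Pcdhga7, and the P0.5 epithelium panel has no line before the end of the Pcdhga12 first exon.

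Of the 19 gamma genes other than the C-type, 5 had a promoter peak in the E14.5 epithelium list, 10 in the E14.5 fiber list, 0 in the P0.5 epithelium list and 3 in the P0.5 fiber list. These shares of 26.3%, 52.6%, 0% and 15.8% were all below the 70.3%, 71.2%, 67% and 64.6% of all protein-coding genes. In the E14.5 fiber list most of the genes with a peak were neighbours along the chromosome. All 7 consecutive genes Pcdhga3, Pcdhgb1, Pcdhga4, Pcdhgb2, Pcdhga5, Pcdhga6 and Pcdhga7 had one, the following 6 genes from Pcdhgb4 to Pcdhga10 had none, and Pcdhgb7 and Pcdhga11 had one again. The pseudogene Pcdhgb8, which follows, had none, and Pcdhga12 after it had one. The run of 7 was not whole with equal numbers of peaks, where Pcdhgb1, Pcdhga4 and Pcdhgb2 dropped out and 4 genes were left. The first gamma gene, Pcdhga1, had no promoter peak in any list.

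Over the 7 genes of the first run, ranks in the E14.5 fiber list went from 28.4% at Pcdhga5 to 64.1% at Pcdhgb2. Their summits stood close to the start sites, from 92 bp before that of Pcdhga6 to 156 bp after that of Pcdhgb1. In E14.5 epithelium only Pcdhga5 and Pcdhga7 of these genes were called, at ranks of 87.9% and 43.5%, beside 28.4% and 29.6% in the fiber list. The Pcdhga7 summit, 87 bp before the start site, was the same base in both E14.5 lists. At Pcdhgb7 the rank was 97.0% in the E14.5 epithelium list and 45.8% in the E14.5 fiber list, and at Pcdhga11 68.5% and 29.6%. Every one of these 4 genes thus ranked higher in the fiber list than in the epithelium list, and the fiber list was the longer of the pair. The summits compared lay 289 bp apart at Pcdhga5, 252 bp at Pcdhgb7 and 682 bp at Pcdhga11. With equal numbers of peaks in each list, the gamma genes with a promoter peak numbered 4 in the E14.5 epithelium list, 9 in the E14.5 fiber list, 2 in the P0.5 epithelium list and 4 in the P0.5 fiber list, C-type genes included.

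Pcdhga12, the last gamma gene before the C-type genes, carried several peaks along its first exon of 2961 bp. Near its start site, the epithelium list of E14.5 had a peak with its summit at 300 bp (rank 33.9%) and the fiber list of that age one at 331 bp (rank 25.2%). A stronger peak stood towards the end of the exon, 2657 to 2707 bp after the start site, and was present in all 4 lists. It ranked at 16.8% in the E14.5 epithelium list, 9.88% in the E14.5 fiber list, 39.5% in the P0.5 epithelium list and 10.3% in the P0.5 fiber list. In E14.5 fibers this peak, chr18:37767481-37768459, was wide enough to reach the promoter window, and in the other lists it lay outside it. A gene counted as without a promoter peak at P0.5 therefore held an open region in its first exon at that age.

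The alpha genes other than the C-type had 2 promoter peaks in the P0.5 fiber list, at Pcdha3 and Pcdha6, and 0 in each of the other lists. From the start site of Pcdha1, the first gene of the array, to 2 kb before that of Pcdhac1, a stretch of 157.851 kb, those other lists held no peak of any kind. Pcdha1 had no promoter peak in any list.

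In the beta cluster, only Pcdhb4 had a promoter peak at E14.5. It stood in fibers, at a rank of 80.6% with its summit 43 bp before the start site, and was lost with equal numbers of peaks and at a q value under 0.001. The P0.5 epithelium list had no promoter peak in this cluster, and its single peak there lay inside the exon of Pcdhb12, 2180 bp after the start site. The P0.5 fiber list counted 5 beta genes. The highest-ranked was that of Pcdhb22, the last beta gene, at 26.4%, and the lowest-ranked that of Pcdhb8, at 91.3%. The first beta gene, Pcdhb1, had no promoter peak in any list.

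The promoter peaks of the P0.5 fiber list differed in place from those of the E14.5 fiber list. In E14.5 fibers, 10 of the 11 genes other than the C-type had the summit of their highest-ranked promoter peak within 500 bp of the start site, the exception being Pcdhga12. In the P0.5 fiber list, 0 of 10 did. There the summits lay 770 to 2111 bp after the start site, with a median of 1906.5 bp, and 9 of the 10 were at least 1.5 kb downstream, beside 1.97% of all protein-coding genes with a promoter peak in that list. The C-type genes with a promoter peak in that list had their summits near the start site, 150 bp and 100 bp before it at Pcdhac1 and Pcdhgc3 and 314 bp after it at Pcdhac2. A window of 1 kb on either side left 4 of the 13 genes of the P0.5 fiber list, namely the 3 C-type genes and Pcdhga7, and a window of 500 bp left the 3 C-type genes.

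**Figure D4:**
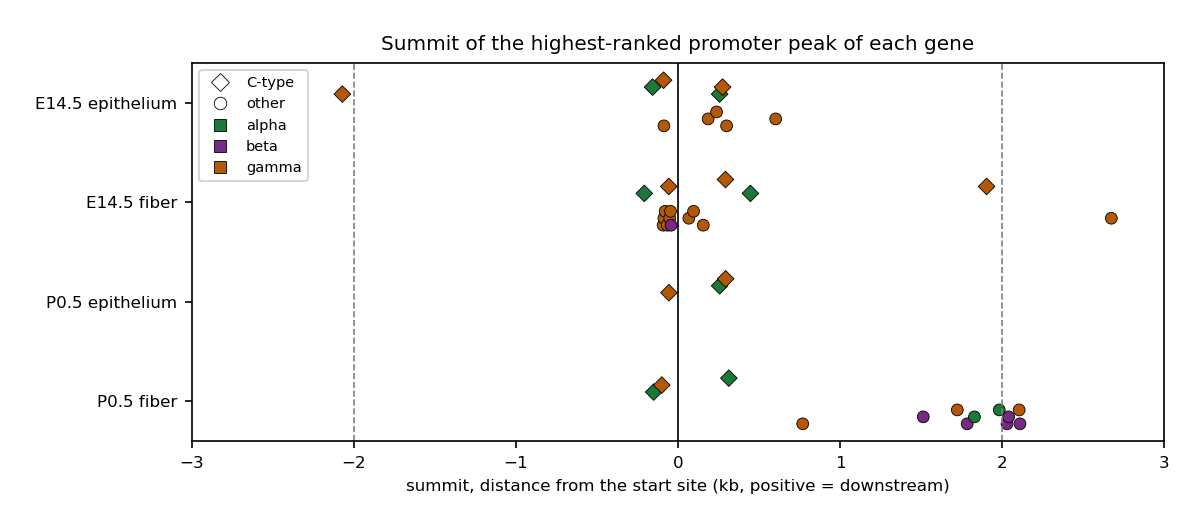
Points give the distance in kb from the start site to the summit of the highest-ranked promoter peak of each gene with such a peak, in each pooled list, with positive values downstream. Diamonds are C-type genes, circles the other genes, colours the clusters, small vertical offsets separate points, and dashed lines mark 2 kb on either side. In the P0.5 fiber row the 10 circles lie between 770 and 2111 bp downstream, and in the E14.5 fiber list 10 of 11 circles lie within 500 bp of the start site.

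All 10 of these P0.5 fiber summits were in coding sequence, beside 14.2% of all protein-coding genes with a promoter peak in that list. Only 3.99% of the latter had a coding summit more than 500 bp downstream, as all 10 had. The first exons of the members were at least 2340 bp long, so summits at these distances necessarily lay in them. Of the genes other than the C-type, 3 of 5 had a coding summit in the E14.5 epithelium list and 1 of 11 in the E14.5 fiber list. More broadly, 15 genes other than the C-type had a peak with its summit in the first exon in the P0.5 fiber list, 1 peak each, the additional ones being Pcdha5, Pcdhb10, Pcdhb11, Pcdhga5 and Pcdhga12. Their summits stood at a median of 66.5% of the way along the exon, from 30.3% at Pcdhga7 to 89.7% at Pcdhga12. Most of these peaks were weak. Only 3 of the 15 had a q value under 0.001, and the median −log10 q was 2.76. At this q value the promoter count of the P0.5 fiber list fell from 13 to 5, the 3 C-type genes with Pcdhb22 and Pcdhga11.

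The whole P0.5 fiber list differed from the others in the same way. Of its peaks more than 1 kb from any start site, 13.3% had their summit in a coding exon, beside 6.14% in the E14.5 epithelium list, 5.21% in the E14.5 fiber list and 6.35% in the P0.5 epithelium list. It was also the list with the lowest share of peaks at a q value under 0.001 (48.9%, beside 80.5% to 87.9% in the others). Of its peaks 22.1% shared a single fold value, against 9.57% to 11.0% in the others. Olfactory receptor genes, another family with large coding exons in long arrays, had a promoter peak at 11, 14, 9 and 24 of 1103 genes in the 4 lists. The summits of 7, 8, 6 and 17 of these peaks were in coding sequence (63.6%, 57.1%, 66.7% and 70.8%). Over all protein-coding genes with a promoter peak the shares were 8.35%, 9.77%, 8.45% and 14.2%, for Hox genes 33.3%, 34.5%, 18.2% and 50%, and for non-clustered protocadherins 0%, 18.2%, 0% and 33.3%, so that in each of these sets the P0.5 fiber list had the highest share. The part of these features of the list in the P0.5 fiber peaks of the protocadherin exons was not tested.

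Peaks also stood outside the member promoters, and several were shared between lists. From the first to the last base of the array, the epithelium lists had 31 peaks at E14.5 and 15 at P0.5, and the fiber lists had 36 and 26. In the order E14.5 epithelium, fiber, P0.5 epithelium, fiber this is 3.40, 3.95, 1.65 and 2.85 peaks per 100 kb. All autosomes together had 4.01, 4.96, 2.34 and 2.53, and chromosome 18 had 3.41, 4.02, 2.05 and 1.81. The densities of the array count all its peaks, those at member promoters included. Peaks of the array were concentrated in the gamma cluster, which held 24, 27, 8 and 11 of them in its 180.099 kb. The beta cluster held 0, 1, 1 and 7 in its 256.422 kb. Outside the promoter windows of the members there were 17, 14, 12 and 12 peaks. In each list 1 of these was the promoter peak of Taf7, a gene of the general transcription machinery that lies between the beta and gamma clusters, at ranks of 4.68%, 4.56%, 6.40% and 4.64%. Another 3 genes of the annotation, Gm37013, Gm38666 and Gm38667, begin in the alpha cluster and run through the array to the gamma constant exons, so that most positions between the clusters also lie in their introns.

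**Figure D5:**
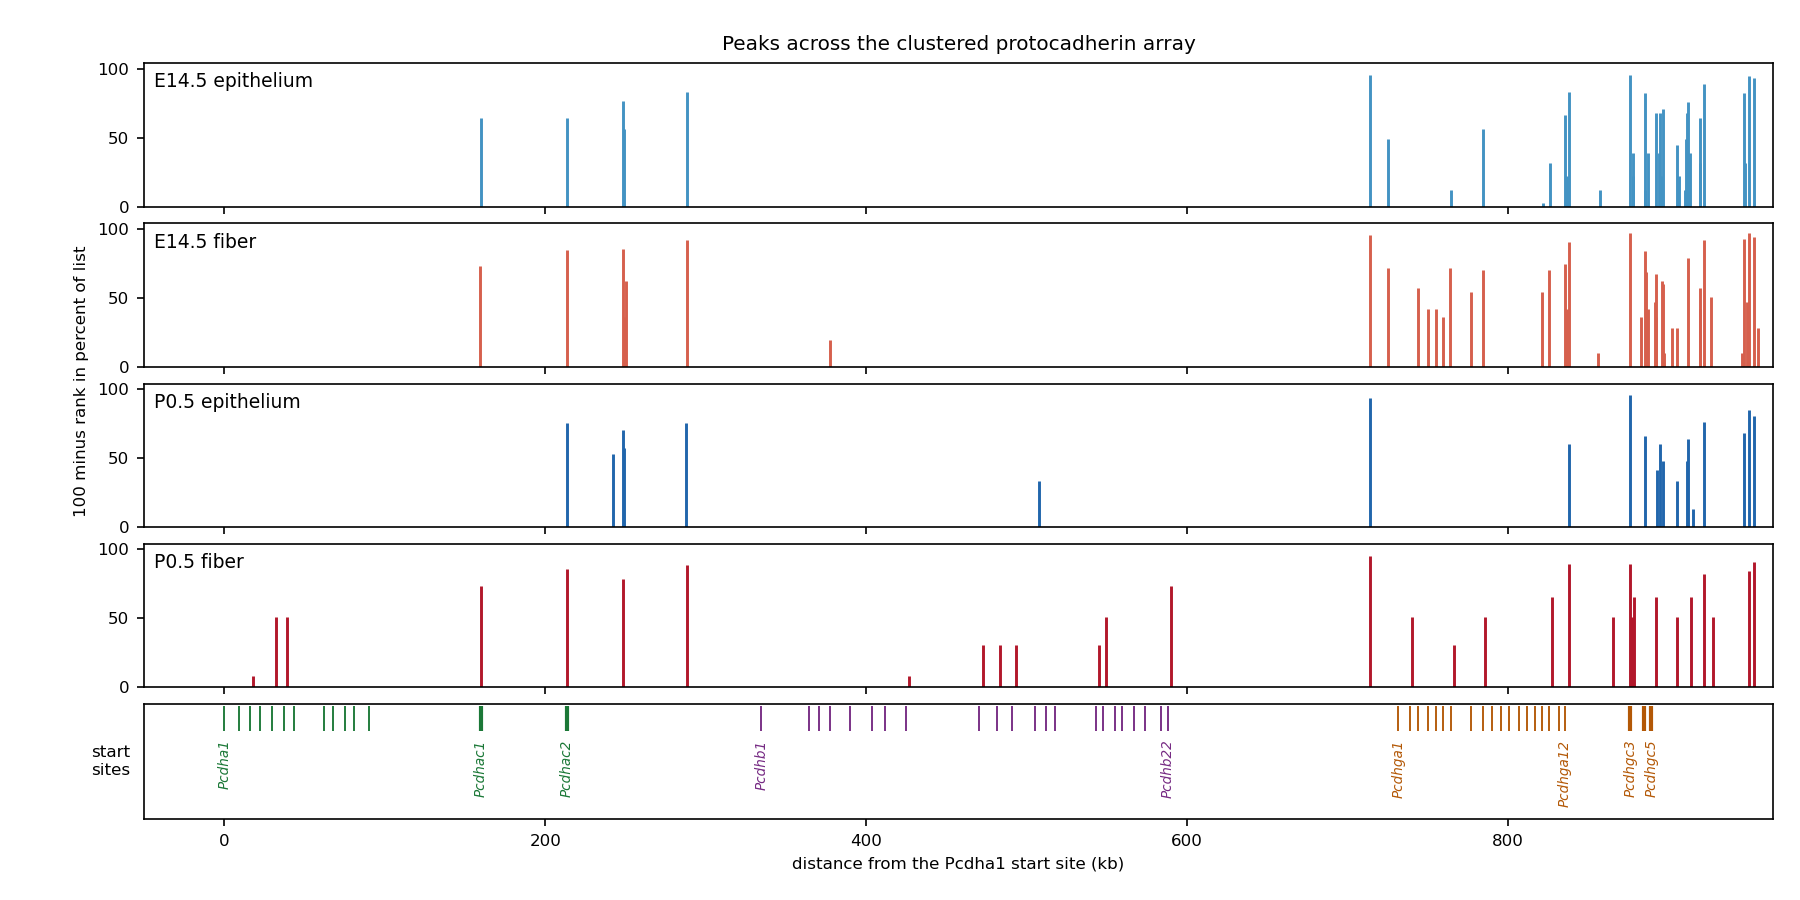
Vertical lines mark the summits of all peaks in each pooled list by distance in kb from the Pcdha1 start site, with a height of 100 minus the rank in percent of the list. Ticks in the lowest panel mark the start sites in green for alpha, purple for beta and orange for gamma, with thick ticks for the C-type genes. The first 157.851 kb hold lines in the P0.5 fiber list only, and the isolated line between the alpha and beta clusters stands in all 4 lists.

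After merging peaks within 10 bp of each other, the array held 61 open regions, of which 38 came from 1 list, 10 from 2 lists, 5 from 3 lists and 8 from all 4. Of the 8 regions shared by all lists, 2 were the promoters of Pcdhac2 and Pcdhgc3, 1 was that of Taf7 and 1 the end of the Pcdhga12 first exon. Another 2 lay in the gamma cluster, at chr18:37821906-37823016, across the end of the first exon of Pcdhgc5, and in an intron at chr18:37835408-37835815. Of the remaining 2, the region at chr18:37178175-37178839 lay in the last intron of the alpha genes, between constant exons, and ranked at 23.3%, 14.9%, 29.6% and 21.4%. The other, at chr18:37218170-37218472, was the only region between the alpha and beta clusters, 46.65 kb before Pcdhb1. It ranked at 17.3% in the E14.5 epithelium list, 8.27% in the E14.5 fiber list, 24.9% in the P0.5 epithelium list and 11.4% in the P0.5 fiber list, with the same summit base in 3 of the 4 lists. Enhancers are known in the alpha constant region, downstream of the alpha cluster and downstream of the gamma cluster. Their positions are not part of the annotation used here, and no region was matched to one.

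Sequence features of the promoters were read from the genome from 250 bases before to 50 bases after each start site. Members had a median GC content of 41.2%, beside 56.7% over the 26242 start sites of protein-coding genes. C-type promoters had a median of 63.0%, from 47.3% at Pcdhgc4 to 65.7% at Pcdhac1, and the other 53 genes 40.7%, from 30.7% to 52.0%. Among the gamma genes other than the C-type, the median GC content was 41.8% in the 10 with a promoter peak in the E14.5 fiber list and 43.3% in the 9 without.

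The letters CGCT, the core of an element known from these promoters, were found on either strand at 57 of the 58 members (98.3%) and at 70.9% of all start sites of protein-coding genes, so that this short motif is common in general. The exception was Pcdhga12. The TATA box letters TATAAA were found at 9 members (15.5%) and at 12.1% of all start sites, and the ends of the 2 motifs can share 1 base. The CTCF consensus, allowing 1 mismatch on either strand, was found at 0 members and at 4.84% of all start sites. Promoters of these clusters are known to carry CTCF sites with the CGCT letters. Whether this consensus finds such sites was not tested, so the lack of a match does not show that a site is absent. At peak summits, taken as the 200 bp around the summit, the CTCF consensus was present at 1 peak of the array in each list. In the P0.5 epithelium list this was a peak in a gamma constant exon, and in the other lists it was the region between the alpha and beta clusters. Over all peaks, 12.2%, 10.04%, 10.8% and 5.89% held such a match. A match is a description of the letters only.

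The exons of these genes resemble each other, and reads that map to several places can be lost before peak calling. The genome was therefore searched for windows of 75 bases, within 2 kb of a start site, that occur more than once on either strand. The median share of such windows was 5.63% in alpha, 0.522% in beta and 0.369% in gamma genes. The highest was 11.3%, at Pcdha6, followed by 10.2% at Pcdhgb8, and the 5 C-type genes had none. Non-clustered protocadherins had a median of 0%. By exact match, most of the 4 kb around each start site was therefore unique at this length, also at the 34 genes without a promoter peak. Windows that differ by a few bases count as unique here, and the part of read loss in missing peaks was not tested. In the gamma genes other than the C-type, the median was 0.153% in the 10 genes with a promoter peak in the E14.5 fiber list and 1.58% in the 9 without.

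Of the 12 non-clustered protocadherins, which have promoters of their own elsewhere in the genome, 9, 11, 10 and 9 had a promoter peak in the 4 lists (75%, 91.7%, 83.3% and 75%, beside 70.3%, 71.2%, 67% and 64.6% of all protein-coding genes), which for 12 genes is near the general share. Of 39 Hox genes, transcription factor genes that also stand in arrays, 24, 29, 11 and 26 had one (61.5%, 74.4%, 28.2% and 66.7%). The Hox share was near the general one in every list except P0.5 epithelium, where it was far below it. Genes that are known to act on the clustered protocadherins nearly all had promoter peaks. All 14, which are Ctcf, genes of cohesin and its loading and release, and genes of the silencing proteins Smchd1, Dnmt3b, Setdb1 and Trim28, had a promoter peak in every list, except Setdb1 in the P0.5 fiber list. Of 7 genes for known partners of protocadherin signalling and adhesion, 6, 7, 6 and 6 had one, Ptk2b being called in the E14.5 fiber list alone.

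The labelled tissue was checked against marker genes. Promoter peaks stood at 5 of 5 lens epithelium markers and 10 of 10 lens fiber markers in every list, so presence alone did not separate the tissues. Markers were compared by the rank of their highest-ranked promoter peak, which leaves out the other peaks of a gene. By rank, 9 of the 10 fiber markers stood higher in the fiber than in the epithelium list of the same age, at both ages. The exception was Prox1. Of the 5 epithelium markers, Foxe3 and Cryab stood higher in the epithelium list at both ages and Cdh1 at P0.5 alone, whereas Pax6 and Pdgfra stood higher in the fiber list at both ages, so these markers did not separate the tissues by rank. At P0.5 these last ranks were close, 6.31% in the fiber and 6.64% in the epithelium list at Pax6 and 10.3% and 10.8% at Pdgfra. The fiber marker with the widest gap at P0.5 was Crybb1, a fiber crystallin. It ranked at 0.494% in the E14.5 fiber list and 10.4% in the E14.5 epithelium list, and at 3.82% in the P0.5 fiber list and 75.7% in the P0.5 epithelium list. Among markers of other cells, the leukocyte gene Ptprc and the pigment gene Tyr had no promoter peak in any list. The neuron markers Elavl3, Elavl4 and Tubb3 had one in all 4, at ranks of 6.29% to 21.5%. Retina markers had a promoter peak at 3, 3, 2 and 1 of 3 genes, vascular endothelium markers at 2, 3, 2 and 1 of 3, and blood and macrophage markers at 2, 2, 1 and 0 of 3. Periocular mesenchyme markers had one at 3 of 3 genes in every list and pigment epithelium markers at 2 of 3. The part of other cells in the protocadherin peaks was not tested.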

How the data were processed

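ATAC-seq was performed on 8 libraries, 2 for each tissue (lens epithelium, lens fibers) and age (E14.5, P0.5). Per the submitters' processing notes and the methods, the authors trimmed reads (Trim Galore 0.4.1), aligned them to mm10 (Bowtie2 2.3.3.1), filtered and deduplicated them (SAMtools 1.2, Picard 2.1.1) and ran MACS2 2.1 with a q threshold of 0.05. The methods describe calls on individual samples, whereas the peak names in the deposited lists mark each list as pooled within its group. The deposited lists give the authors' fold enrichment, a ratio of the summit pileup to background that MACS2 estimated locally, and their −log10 p and −log10 q values. The deposited peak score was not used. The lists hold no read counts, the library totals given by the study were not used here, and no interval or test was computed. All 4 lists were matched to groups and 0 columns stayed unassigned.

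Peaks were placed on the 45756 curated RefSeq transcripts of GRCm38 by an overlap of at least 1 bp, ranked by fold enrichment within each list, with ties given the best shared rank, and merged at 10 bp. Coding exons, motifs and repeated windows of 75 bases, the read length of the study, came from the same annotation and genome. Python 3.11.15, pandas 2.3.3, numpy 2.4.6, numba 0.67.0, pysam 0.24.0, samtools 1.23.1 and matplotlib 3.10.9 were used. Of 400 simulated peaks, 400 (100%) were placed correctly. The genes, gene lists, promoter width and alternatives were chosen with earlier results of these data known.

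Named with values were, in each cluster, the first and last gene, the highest-ranked gene in each list, genes present in all 4 lists, the C-type genes, and genes that a count of a pattern needed. The E14.5 fiber run, the first-exon peaks, the coding-exon shares and the marker Crybb1 were chosen after their values were seen. Promoter sequences are not printed.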

Additional observations from a re-analysis of the deposited data

How the results depend on the processing

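Alternatives were a promoter of 1 kb or 500 bp, the summit inside the promoter, assignment to the nearest start site only, a q value under 0.001, equal numbers of peaks (58592) in each list, predicted transcripts, ranking by p value and a margin of 50 kb. Of the results that answer a comparison, 78 values stayed within 1.5 times the reported one and 12 did not, and of the others 127 did and 13 did not. The count of members with a promoter peak in the P0.5 fiber list became 4 at 1 kb, 3 at 500 bp and 5 at a q value under 0.001, and that in the E14.5 epithelium list became 6 with equal numbers of peaks. The median rank of the P0.5 fiber list became 20.2% at 1 kb and 14.0% at 500 bp, as the first-exon peaks left the window, and that of the E14.5 fiber list became 59.9% with equal numbers, where the list is shorter. Peaks between the member promoters became 26 in the E14.5 epithelium list and 25 in the E14.5 fiber list with the 50 kb margin, 8 in the E14.5 fiber list with equal numbers, and 21 at 1 kb and 6 at a q value under 0.001 in the P0.5 fiber list. Members with a promoter peak in no list became 43 at 1 kb and at 500 bp, 41 with equal numbers and 42 at a q value under 0.001. Leaving out a replicate was not possible, since the libraries of a group were pooled. No paired analysis was possible because each group has a single pooled list. The lists carry no read depth, and a missing peak does not show closed chromatin.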

Other observations

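The 50 kb after the gamma cluster, most of it in the gene Diaph1, which encodes an actin-nucleating formin, held 9 peaks in the E14.5 epithelium list, 11 in the E14.5 fiber list, 6 in the P0.5 epithelium list and 5 in the P0.5 fiber list, or 18, 22, 12 and 10 per 100 kb. The 50 kb before the alpha cluster held 0 in every list. After merging, 3 of the regions in Diaph1 came from all 4 lists. The region at chr18:37851984-37852578 ranked at 10.9% and 7.97% in the epithelium and fiber lists of E14.5 and at 23.6% and 18.2% in those of P0.5, and its E14.5 summits were the same base. The region at chr18:37879627-37880630 ranked, in the same order, at 5.66%, 3.18%, 15.1% and 15.7%, with summits within 7 bp of each other. The region at chr18:37883501-37883978 ranked at 6.84%, 5.76%, 19.6% and 9.32%, with summits within 16 bp. The gamma genes closest to them, Pcdhgc4 and Pcdhgc5, had no promoter peak in the P0.5 fiber list, and Pcdhgc5 had none in the P0.5 epithelium list either. Whether any of these regions acts on the clusters was not tested.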
